A study of Mus musculus with 32 samples.

Results

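To find which genes of the RPE differ between an early and a late stage of retinal degeneration when Nrf2 is overexpressed, RNA from Nrf2-treated eyes was compared between postnatal days 20 and 40 (P20 and P40). The eyes were all of those labelled as treated with Nrf2, 7 at P20 and 9 at P40, and they made up 16 of the 32 libraries of the series. All mice were labelled *rd1*, a strain on the FVB/N background whose rods lack a working *Pde6b* gene and die early. Each Nrf2 eye had received the human Nrf2 gene (*NFE2L2*) in an AAV vector under the human Best1 promoter, which is active in the RPE, mixed with AAV-Best1-GFP. AAV-Best1-GFP alone went into the opposite eye, which is called the control eye. No uninjected eye and no eye labelled as WT was analysed here. The ages were different mice, so no eye at P40 had a partner at P20. The methods count fewer *rd1* mice at each age than the labels do, and also CD1 mice at P40, so every value with age rests on the strain given by the labels.

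The RPE is a single epithelial layer between the photoreceptors and the choroid, and it rests on Bruch's membrane. That layered sheet includes the basement membrane of the RPE, built of type IV collagens, laminins, and nidogens, and a central layer of elastic fibres. Nrf2 is a transcription factor that Keap1 holds inactive in unstressed cells, and its targets include enzymes of glutathione, thioredoxin, and NADPH metabolism. The RPE also makes melanosomes early in life, and it keeps a circadian clock in which the proteins Clock and Bmal1 bind E-box motifs and their target genes feed back on them.

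The 7 libraries at P20 held 16548332 to 50542797 estimated counts and the 9 at P40 held 32422410 to 49147448. Levels are given as CPM, counts scaled to one common library total with TMM factors, and they are not divided by transcript length. The transgene ranged from 1082 to 9506 CPM with a median of 5429.8 at P20, and from 3205 to 10438 CPM with a median of 7024 at P40, so the ages overlapped (log2 fold change 0.19 ± 0.36 (SE), adjusted p = 0.766, edgeR). Mouse *Nfe2l2* ranged from 72.7 to 97.8 CPM with a median of 84.6 at P20, and from 65.9 to 186 CPM with a median of 92.8 at P40, also overlapping (log2 fold change 0.32 ± 0.19 (SE), adjusted p = 0.291, edgeR). The Nrf2 library of P20 mouse 4 held the lowest transgene level at 1082 CPM, while the next lowest Nrf2 eye at P20 held 4810.1 CPM. The control library of P20 mouse 3 held 1098 CPM, where the other control eyes held at most 154 CPM, and these libraries of mice 3 and 4 were the closest pair of the series, differing by 3.90 times sampling noise against 12.1 times for the next pair. The label of the library labelled Nrf2 of P20 mouse 4, called P20 mouse 4 below, is thus in doubt, and the main counts are given with and without it. The libraries of P20 mouse 2 and of P40 mice 3 and 6 lay at the positive end of the first principal component and are called the 3 distant libraries. Their median correlations with the other Nrf2 libraries were 0.833, 0.849, and 0.813, the lowest of the 16, followed by 0.859 for P40 mouse 8. Markers of the RPE summed to 12536 to 30678 CPM at P20 and 13287 to 72465 CPM at P40 over 12 genes, and none of these passed the test with age. Markers of rods stayed low in all 16 libraries, at 9.03 to 124 CPM at P20 and 9.10 to 157 CPM at P40 over 12 genes. The tissue was bulk RNA, so fewer cells of a type and less RNA per cell cannot be told apart. The labels mention 2 sequencing runs without saying which libraries were in which, so run and age cannot be told apart where they coincide. The titles of all P20 libraries begin with M and those of all P40 libraries with A. Whatever goes with these letters cannot be told apart from age.

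Few genes passed the test between the ages in Nrf2 eyes, and most of these were lower at P40. Of 16745 genes tested with the quasi-likelihood test of edgeR, 84 had a Benjamini-Hochberg adjusted p under 0.05, which is 0.502% of the genes. Of these, 56 (0.334%) fell and 28 (0.167%) rose, and 69 changed at least 2-fold. DESeq2 called more genes and the opposite balance, 1798 of 18310 with 1155 that rose and 643 that fell, among them all 84. With limma voom 2213 of 16745 genes passed. The median log2 fold change of all genes tested was 0.02. The P20 and P40 libraries did not overlap for 136 genes (0.812% of those tested), and 55 of the 84 genes were among them, 40 that fell and 15 that rose. The threshold ran through a dense stretch of p-values, since 28 of the 84 had an adjusted p above 0.045 and 4326 genes had an unadjusted p under 0.05. Leaving out 1 library at a time gave between 21 and 190 genes. The count moved more than 1.5-fold without any one of the 7 P20 libraries (21 to 47 genes), without P40 mouse 5, 6, 7, or 8 (38 to 53), and without P40 mouse 2 (190). Without P20 mouse 4 it was 34, of which 33 were among the 84. A core of 21 genes passed the threshold in all 16 of these fits.

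Of that core, *Serpine3*, *Pmel*, *Nog*, *Npnt*, *Adamts1*, *Robo1*, *C1qtnf6*, *Dact1*, *Col4a5*, *Trim63*, *Fstl4*, *Mlph*, *Lamc1*, *Cpz*, and *Psat1* fell, and *Khdrbs3*, *Ppbp*, *Ciart*, *Pmepa1*, *Nfix*, and *Dbp* rose.

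*Serpine3*, a member of the serpin family of protease inhibitors (chr14:62663667-62692243, GRCm38), had the largest fall of the 84 genes. It ranged from 250.01 to 1384 CPM with a median of 831 at P20, and from 22.5 to 126 CPM with a median of 40.6 at P40. Every P20 library was at least 250.01 CPM and every P40 library was below that, so the ages did not overlap. The gene was 14.4-fold lower at P40 (log2 fold change −3.85 ± 0.40 (SE), adjusted p = 0.000426, edgeR). In control eyes it ranged from 163 to 449 CPM at P20 and from 78.8 to 404 CPM at P40, with overlap, and the fall there did not pass the test (log2 fold change −0.68 ± 0.30 (SE), adjusted p = 0.120, edgeR). The median of the Nrf2 eyes was above that of the control eyes at P20 (831 against 249 CPM) and below it at P40 (40.6 against 145 CPM). *Serpine3* was the 1 gene of 17959 (0.00557%) whose change with age differed between Nrf2 and control eyes, by −3.08 ± 0.37 (SE) on the log2 scale with the mouse as a block (adjusted p = 0.00347, edgeR). Without P20 mice 3 and 4 the difference was −3.27 (adjusted p = 0.00510, edgeR).

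**Figure D1:**
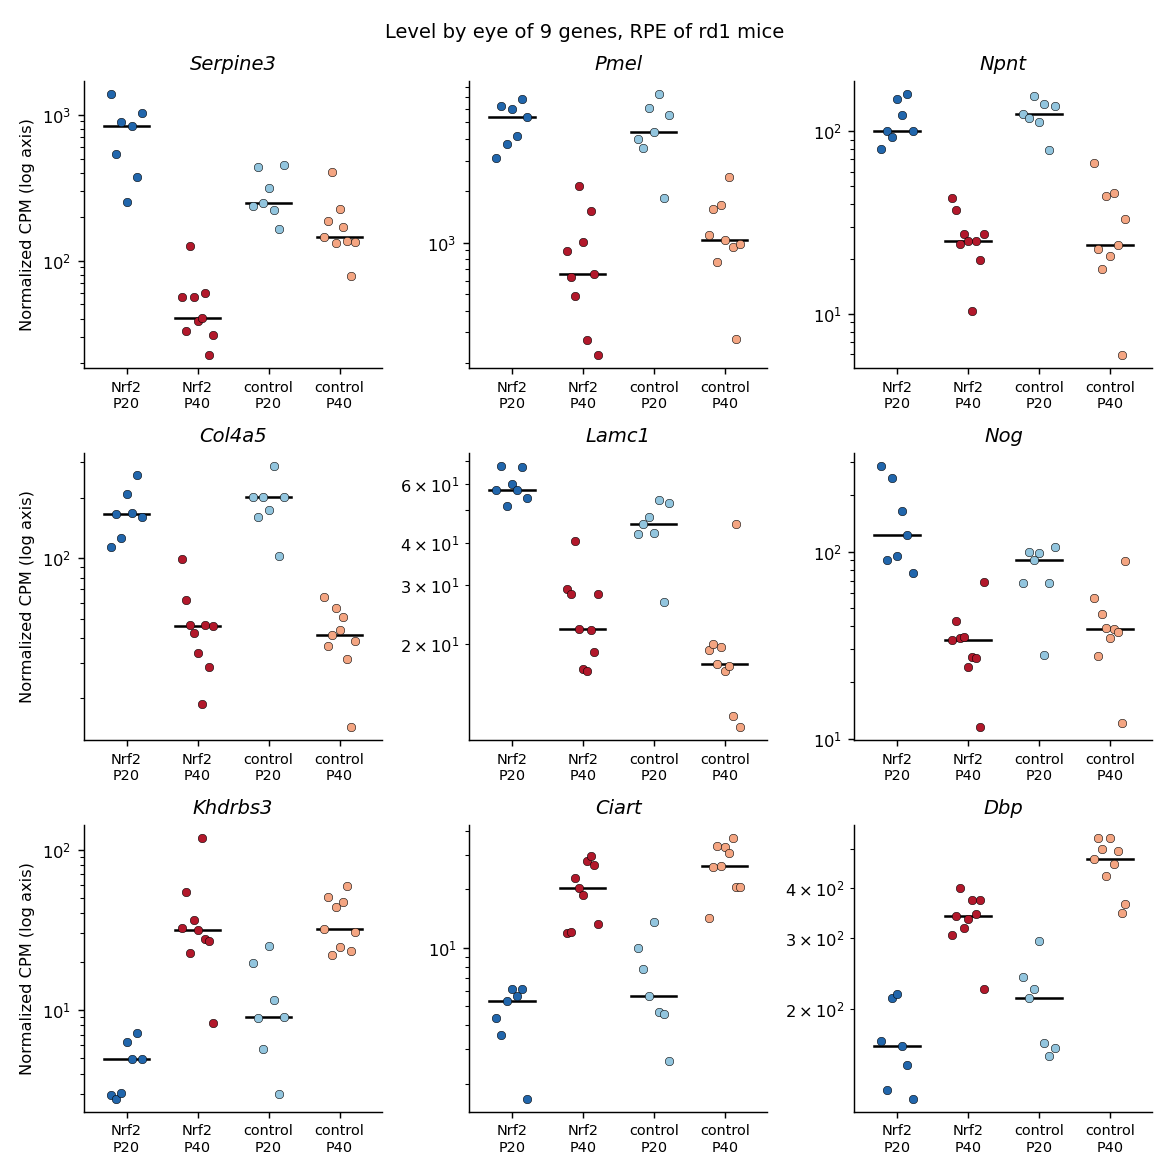
Normalized CPM (log axis) of 9 genes in each eye, with Nrf2 eyes in dark and control eyes in light colours and a bar at each group's median, in which for all 9 genes the 7 Nrf2 eyes at P20 and the 9 at P40 do not overlap. The median of *Serpine3* in Nrf2 eyes is 831 CPM at P20 and 40.6 CPM at P40, above and then below that of the control eyes.

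Several genes of the basement membrane and of elastic fibres fell. Of 34 such genes tested, 5 fell and none rose, where 0.334% of all genes fell. The median log2 fold change was −0.73 against 0.02 for all genes, and 29 were below 0. At an unadjusted p under 0.05, 22 of the 34 were lower and 1 was higher at P40. Of all 16745 genes, 4326 reached that p in either direction. No overlap between the ages was seen for 7 of the 34, against 0.812% of all genes. The 5 were 2 type IV collagen chains, 2 laminin chains, and elastin.

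*Col4a5*, a type IV collagen chain (chrX:141475385-141689234, GRCm38), ranged from 113 to 259.6 CPM with a median of 165 at P20, and from 18.7 to 98.6 CPM with a median of 46.1 at P40. All P40 libraries were below all P20 libraries, and the gene fell 3.58-fold (log2 fold change −1.84 ± 0.27 (SE), adjusted p = 0.00484, edgeR). *Lamc1*, the gamma-1 chain found in most laminins (chr1:153218922-153332786), ranged from 51.7 to 67.8 CPM with a median of 57.4 at P20, and from 16.6 to 40.5 CPM with a median of 22.2 at P40. Its P20 libraries were tightly grouped and again all above those of P40 (log2 fold change −1.23 ± 0.18 (SE), adjusted p = 0.00443, edgeR). Elastin (*Eln*), the core of the elastic fibre, ranged from 24.8 to 78.8 CPM with a median of 38.3 at P20, and from 3.79 to 22.8 CPM with a median of 8.98 at P40. The ages did not overlap (log2 fold change −1.79 ± 0.33 (SE), adjusted p = 0.0235, edgeR), and it passed in 13 of the 16 fits that left out a library. *Col4a2* (log2 fold change −1.49 ± 0.31 (SE), adjusted p = 0.0428) and *Lamb1* (log2 fold change −1.04 ± 0.22 (SE), adjusted p = 0.04996), both from edgeR and without overlap between the ages, each passed in 3 of those fits. The list's count was between 2 and 7 over the 16 fits, 3 without P20 mouse 4, 3 without the 3 distant libraries, and 4 with the correction for transcript length described below. DESeq2 called 12 and limma voom 23 of the list, against 1798 of 18310 and 2213 of 16745 of all genes.

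The 6 type IV collagen genes, grouped as a family after their values were seen, differed in their fitted changes. The log2 fold changes were −1.21 ± 0.39 (SE) for *Col4a1* and −1.19 ± 0.31 for *Col4a6*. They were −0.55 ± 0.21 for *Col4a3* and −0.64 ± 0.16 for *Col4a4*, and these 4 did not pass the test across all genes (adjusted p = 0.110, 0.0926, 0.127, and 0.0798, edgeR). The differences between the chains were not tested.

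**Figure D2:**
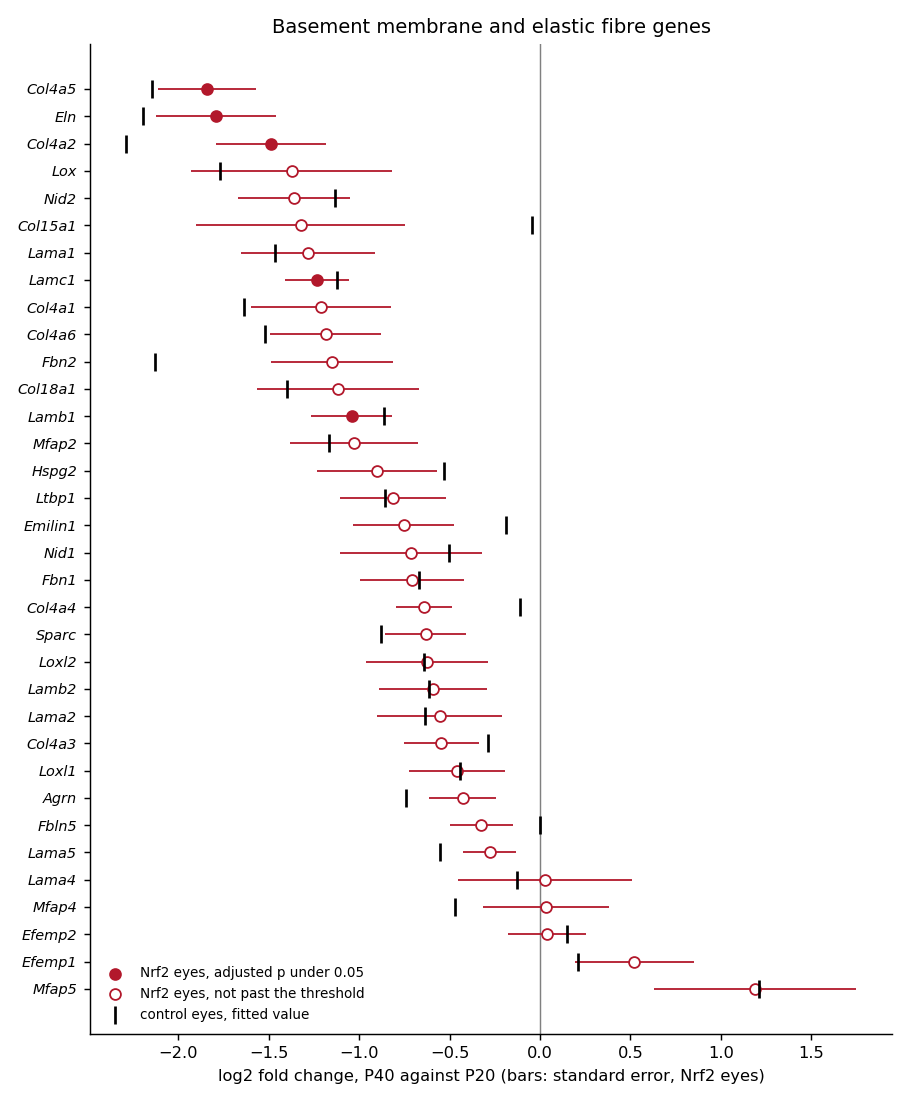
Fitted log2 fold change from P20 to P40 of the 34 basement membrane and elastic fibre genes in Nrf2 eyes, with standard errors, and the fitted value in control eyes as a tick. Filled points mark the 5 genes that passed the test in Nrf2 eyes, and 29 of the 34 points lie below 0.

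Outside these lists, *Npnt*, *Emilin3*, and *Emilin2* were among the 15 largest falls. *Npnt* encodes nephronectin, a basement membrane ligand of integrin alpha-8 beta-1 (chr3:132881745-132950291, GRCm38), and it ranged from 80.3 to 159.7 CPM with a median of 101 at P20, and from 10.4 to 43.1 CPM with a median of 25.1 at P40. The ages were far apart for this gene, and it fell 4.25-fold (log2 fold change −2.09 ± 0.23 (SE), adjusted p = 0.000485, edgeR). *Emilin3* and *Emilin2* encode glycoproteins of the elastin-microfibril interface family. *Emilin3* ranged from 20.6 to 52.6 CPM with a median of 22.7 at P20, and from 0.419 to 9.07 CPM with a median of 4.10 at P40 without overlap (log2 fold change −2.89 ± 0.54 (SE), adjusted p = 0.0245, edgeR, 12 of 16 fits). *Emilin2* overlapped slightly between the ages (log2 fold change −2.57 ± 0.50 (SE), adjusted p = 0.0302, edgeR, 9 of 16 fits).

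Some enzymes that process collagen or cut the matrix also fell. Of 14 collagen processing genes tested, 3 fell and none rose (median log2 fold change −0.37), and of 17 matrix proteases and TIMP inhibitors 3 fell and none rose (median −0.63). Among all genes tested, 0.334% fell. *Serpinh1* encodes Hsp47, the collagen chaperone of the endoplasmic reticulum, and ranged from 99.9 to 199 CPM with a median of 136 at P20, and from 16.2 to 84.4 CPM with a median of 40.01 at P40 without overlap (log2 fold change −1.60 ± 0.31 (SE), adjusted p = 0.0302, edgeR, 9 of 16 fits). *Bmp1*, the protease that removes the C-propeptide of fibrillar procollagens, fell by 1.13 ± 0.21 (SE) on the log2 scale and *Plod1*, a lysyl hydroxylase of collagen, by 0.87 ± 0.19 (adjusted p = 0.0247 and 0.04996, edgeR). The ages did not overlap for either gene, and they passed in 9 and 2 of 16 fits. The count of 3 collagen processing genes was 0 without P20 mouse 4, and it ranged from 0 to 3 over the fits that left out a library.

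*Adamts1*, a secreted protease that cleaves versican and aggrecan, was the protease with the steadiest fall. It ranged from 124 to 271 CPM with a median of 193 at P20, and from 24.8 to 84.2 CPM with a median of 45.1 at P40, with all P40 libraries below all P20 libraries (log2 fold change −1.88 ± 0.27 (SE), adjusted p = 0.00443, edgeR). *Mmp17*, a membrane-bound matrix metalloproteinase, ranged from 4.17 to 47.8 CPM with a median of 5.58 at P20, and from 0.604 to 3.79 CPM with a median of 1.25 at P40, without overlap, and its highest P20 value was that of mouse 2 (log2 fold change −2.63 ± 0.57 (SE), adjusted p = 0.04996, edgeR, 2 of 16 fits). Without P20 mouse 2 its log2 fold change was −1.61. *Adamts2*, the procollagen N-proteinase, overlapped between the ages (log2 fold change −1.62 ± 0.32 (SE), adjusted p = 0.0331, edgeR, 7 of 16 fits), as did *Adamts16*, outside the list, a secreted protease of the same family (log2 fold change −2.37 ± 0.41 (SE), adjusted p = 0.0134, edgeR, 15 of 16 fits). Of the 17 proteases and inhibitors, 1 passed without P20 mouse 4, 1 to 3 over the fits that left out a library, 7 with DESeq2, and 6 with limma voom. None of the 28 interstitial collagens and other matrix proteins passed with edgeR (median −0.53), and DESeq2 and limma voom called 8 and 10. Of all genes, these 2 methods called 1798 of 18310 and 2213 of 16745. At an unadjusted p under 0.05, 10 of the 28 were lower, where 4326 of all 16745 genes reached that p in either direction. The 2 of these with the highest mean level, *Col8a1* and *Thbs1*, had log2 fold changes of −0.84 ± 0.24 and −0.53 ± 0.40 (SE). Markers of fibroblasts, cells that also make many of these proteins, summed to 283 to 971 CPM at P20 and 239 to 687 CPM at P40 over 6 genes. Of the 6, 5 were fitted below 0, none passed, and 3 were lower at an unadjusted p under 0.05. The 2 with the highest mean level, both also in the interstitial list, were *Col1a1* and *Dcn*. Their log2 fold changes were −2.13 and 0.14 (adjusted p = 0.0603 and 0.860, edgeR). The part of these cells in the falls of the matrix genes was not tested.

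Some genes of the melanosome fell as well, at the level of RNA. Pigment was not measured, and nothing here shows that these FVB/N eyes held any. Of 13 tested, 3 fell, none rose, and 12 were fitted below 0 (median log2 fold change −0.71), where 0.334% of all genes fell. An unadjusted p under 0.05 was found for 11 of the 13, and for 4326 of all 16745 genes. *Pmel* encodes the protein that forms the fibrils on which melanin is laid down (chr10:128704195-128720238, GRCm38). It ranged from 3098 to 6815 CPM with a median of 5369 at P20, and from 221 to 2123 CPM with a median of 657 at P40, without overlap, and it fell 5.72-fold (log2 fold change −2.51 ± 0.40 (SE), adjusted p = 0.00748, edgeR). *Mlph*, the linker that joins Rab27a on melanosomes to a myosin motor, ranged from 95.03 to 227 CPM with a median of 122 at P20, and from 25.8 to 71.3 CPM with a median of 51.8 at P40, also without overlap (log2 fold change −1.41 ± 0.22 (SE), adjusted p = 0.00635, edgeR). *Oca2*, a melanosomal anion transport protein, ranged from 198 to 309 CPM with a median of 239.9 at P20, and from 78.9 to 165 CPM with a median of 126 at P40, without overlap (log2 fold change −0.96 ± 0.17 (SE), adjusted p = 0.0134, edgeR, 15 of 16 fits). The tyrosinase gene *Tyr* (−0.89 ± 0.23, adjusted p = 0.0940) and the related *Dct* (−0.02 ± 0.48, adjusted p = 0.982), both from edgeR and singled out after their values were seen, did not pass. The list's count was 3 without P20 mouse 4, without the 3 distant libraries, and with the correction for length. It was 2 to 5 over the fits that left out a library, 8 with DESeq2, and 9 with limma voom. Of all genes, DESeq2 called 1798 of 18310 and limma voom 2213 of 16745. Choroidal melanocytes express many of the same genes. The 6 melanocyte markers, *Pmel* among them, summed to 4237 to 8094 CPM at P20 and 877 to 3334 CPM at P40, with 4 of the 6 fitted below 0. Among melanocyte markers not shared with the RPE pigment genes, *Sox10*, *Kit*, and *Ednrb* had log2 fold changes of −1.27 ± 0.43, −0.72 ± 0.37, and 0.85 ± 0.43 (SE), none past the threshold, and the part of melanocytes in the falls was not tested.

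*Nog*, which encodes the BMP antagonist noggin, ranged from 77.05 to 287 CPM with a median of 122 at P20, and from 11.6 to 68.7 CPM with a median of 33.7 at P40 without overlap and fell 4.51-fold (log2 fold change −2.17 ± 0.33 (SE), adjusted p = 0.00635, edgeR). *Robo1*, a receptor for Slit guidance proteins and the 1 gene of 29 axon guidance genes that passed, ranged from 11.1 to 32.6 CPM with a median of 18.5 at P20, and from 2.97 to 8.75 CPM with a median of 4.63 at P40 without overlap (log2 fold change −1.88 ± 0.28 (SE), adjusted p = 0.00502, edgeR). *Tcf7*, a transcription factor of the Wnt pathway, was the 1 of 28 Wnt pathway genes that passed (log2 fold change −1.39 ± 0.29 (SE), adjusted p = 0.0464, edgeR, 4 of 16 fits). The share of all genes that passed was 0.502%. Without P20 mouse 4, 0 of the Wnt pathway genes and 1 of the axon guidance genes passed. The next 5 genes belong to the core but were named after their values were seen. *Dact1*, a Dishevelled-binding regulator of Wnt signalling (−1.86 ± 0.31), *C1qtnf6*, a secreted C1q and TNF-related protein (−1.87 ± 0.27), and *Fstl4*, a follistatin-like protein (−1.72 ± 0.26), fell. So did *Cpz*, a carboxypeptidase with a frizzled-like domain (−1.19 ± 0.19), and *Trim63*, a ubiquitin ligase best known from striated muscle (−1.80 ± 0.25, SE on the log2 scale throughout). The ages did not overlap for any of them, and their adjusted p was 0.00995, 0.00443, 0.00635, 0.00680, and 0.00443 (edgeR).

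Among the other large falls was *Myh11*, the smooth muscle myosin heavy chain. It ranged from 143 to 581 CPM with a median of 295 at P20, and from 4.41 to 114 CPM with a median of 47.6 at P40, without overlap (log2 fold change −2.76 ± 0.50 (SE), adjusted p = 0.0223, edgeR, 15 of 16 fits). Markers of mural cells, which hold *Myh11*, summed to 342 to 1658 CPM at P20 and 81.3 to 827 CPM at P40 over 6 genes, and 5 of the 6 were fitted below 0. Their part in the fall of *Myh11* was not tested. *Bpifb5*, a secreted protein of the BPI-fold family, was at 3.02 to 18.9 CPM at P20 and at 0 to 2.51 CPM at P40 (log2 fold change −3.73 ± 0.80 (SE), adjusted p = 0.04996, edgeR, 3 of 16 fits). *Hif3a*, a hypoxia-inducible factor (−1.91 ± 0.38), *Cdh17*, a cadherin (−1.90 ± 0.40), and *Ssc5d*, a soluble scavenger receptor (−1.88 ± 0.35), fell with adjusted p of 0.0382, 0.0474, and 0.0258 (edgeR) and passed in 7, 3, and 12 of the 16 fits.

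A smaller fall was that of *Psat1*, an enzyme of serine synthesis and a target of the integrated stress response. It ranged from 99.3 to 142 CPM with a median of 112 at P20, and from 68.9 to 79.3 CPM with a median of 72.5 at P40, with the P40 libraries in a narrow band below all P20 libraries (log2 fold change −0.62 ± 0.10 (SE), adjusted p = 0.0113, edgeR). Of all genes 0.502% passed, and of 25 genes of the integrated stress and unfolded protein responses only *Psat1* did. The median of that list was 0.12. Over the fits that left out a library the list's count was 1 to 3, and it was 1 without P20 mouse 4. DESeq2 and limma voom each called 5, against 1798 of 18310 and 2213 of 16745 of all genes.

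Clock genes moved in both directions. Of 17 tested, *Ciart*, *Dbp*, and *Nr1d1* rose, *Nfil3* fell, and the median log2 fold change was −0.16. Among all genes tested, 0.167% rose and 0.334% fell. *Ciart*, a repressor of the clock (chr3:95878503-95882251, GRCm38), ranged from 1.68 to 6.17 CPM with a median of 5.34 at P20, and from 11.95 to 29.4 CPM with a median of 20.4 at P40. Every P40 library was above every P20 library, and the rise was 4.44-fold (log2 fold change 2.15 ± 0.30 (SE), adjusted p = 0.00443, edgeR). *Dbp*, an activator that binds D-box motifs, ranged from 119 to 217 CPM with a median of 161 at P20, and from 224 to 401 CPM with a median of 340.1 at P40, again without overlap (log2 fold change 1.07 ± 0.17 (SE), adjusted p = 0.00798, edgeR). *Nr1d1*, the repressor Rev-erb alpha, ranged from 27.2 to 62.8 CPM with a median of 48.2 at P20, and from 56.1 to 159 CPM with a median of 92.4 at P40 with a slight overlap (log2 fold change 1.06 ± 0.23 (SE), adjusted p = 0.04996, edgeR, 1 of 16 fits). *Nfil3*, a repressor that competes for D-boxes, ranged from 11.4 to 23.9 CPM with a median of 16.03 at P20, and from 1.86 to 10.6 CPM with a median of 6.57 at P40 without overlap (log2 fold change −1.34 ± 0.26 (SE), adjusted p = 0.0341, edgeR, 8 of 16 fits). The other clock genes did not pass, among them *Per1* (−0.45 ± 0.27), *Per2* (−0.24 ± 0.32), and *Arntl*, which encodes Bmal1 (−0.29 ± 0.22, SE). The hour at which eyes were collected is not given in the sources used here, so hour and age cannot be told apart. Without P20 mouse 4, 2 of the 17 genes passed, as in the lowest of the fits that left out a library. DESeq2 and limma voom each called 5 of the 17, against 1798 of 18310 and 2213 of 16745 of all genes.

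The stretches before the starts of *Ciart* and *Nr1d1* are shown because both genes rose while only one of these windows holds the E-box letters CACGTG, which the clock activators bind. They were read from RefSeq (GRCm38.p6), run 5′ to 3′ on the strand of the gene, leave out any annotated exon, and have each match in capitals. That of *Ciart* lies at chr3:95882252-95882478 on the minus strand and that of *Nr1d1* at chr11:98775378-98775627 on the minus strand.
Ciart: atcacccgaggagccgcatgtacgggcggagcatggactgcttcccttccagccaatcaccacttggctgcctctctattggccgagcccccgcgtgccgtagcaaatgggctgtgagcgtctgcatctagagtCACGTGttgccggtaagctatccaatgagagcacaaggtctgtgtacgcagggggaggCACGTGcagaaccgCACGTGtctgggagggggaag
Nr1d1: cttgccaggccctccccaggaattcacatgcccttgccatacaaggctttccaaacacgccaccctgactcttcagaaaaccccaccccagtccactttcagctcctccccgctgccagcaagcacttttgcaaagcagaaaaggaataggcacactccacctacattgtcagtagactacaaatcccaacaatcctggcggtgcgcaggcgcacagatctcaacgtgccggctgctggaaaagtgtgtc
The *Ciart* window held 3 matches, which began between 116 and 44 bases before the RefSeq start. CACGTG reads the same on both strands, and it occurred in 6.02% of the 32851 RefSeq windows of 250 bases before a start. Windows were found for 15 of the 17 clock genes, and 5 of these held the motif, while those of *Dbp*, *Nr1d1*, and *Nfil3* did not. The D-box letters TTATGTAA, TTATGCAA, and TTACGTAA, searched on both strands, occurred in none of the windows of these 4 genes and in 1.61% of all windows. A match is a string of letters in a short window and says nothing of binding in these eyes. Sequence outside the windows was not searched, so a window without a match does not show that the gene lacks the motif.

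The largest rise was that of *Khdrbs3*, an RNA-binding regulator of splicing (chr15:68928420-69101211, GRCm38). It ranged from 2.79 to 7.15 CPM with a median of 4.96 at P20, and from 8.25 to 119 CPM with a median of 31.3 at P40, without overlap, and was 8.91-fold higher at P40 (log2 fold change 3.16 ± 0.46 (SE), adjusted p = 0.00443, edgeR). *Pmepa1*, an inhibitor of TGF-beta signalling, ranged from 12.8 to 68.3 CPM with a median of 21.03 at P20, and from 83.8 to 163 CPM with a median of 106 at P40, also without overlap (log2 fold change 1.89 ± 0.30 (SE), adjusted p = 0.00712, edgeR). *Nfix*, a transcription factor of the nuclear factor I family, ranged from 38.3 to 63.4 CPM with a median of 47.3 at P20, and from 46.5 to 358 CPM with a median of 163 at P40 (log2 fold change 1.88 ± 0.29 (SE), adjusted p = 0.00680, edgeR). One P40 library of *Nfix* lay within the P20 range and the other 8 above it. *Id1*, an inhibitor of helix-loop-helix transcription factors and a target of BMP signalling, ranged from 24.5 to 50.4 CPM with a median of 34.3 at P20, and from 56.5 to 266 CPM with a median of 77.3 at P40, with the highest value in P40 mouse 8 (log2 fold change 1.54 ± 0.32 (SE), adjusted p = 0.0428, edgeR, 6 of 16 fits).

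*Znrf2*, a ubiquitin ligase (2.07 ± 0.36), *Ppp1r1b*, the phosphatase inhibitor DARPP-32 (1.72 ± 0.30), and *Egln1*, an oxygen-dependent prolyl hydroxylase of HIF proteins (1.33 ± 0.24), rose and passed in 15, 15, and 11 of the 16 fits (adjusted p = 0.0150, 0.0149, and 0.0214, edgeR). Metabolic enzymes among the rises were *Gnmt*, a glycine methyltransferase (1.79 ± 0.35), and *Mmachc*, which processes vitamin B12 (1.44 ± 0.30). Secreted proteins were *Rarres2*, which encodes chemerin (1.89 ± 0.41), *Igfbp6*, a binding protein of insulin-like growth factors (1.47 ± 0.29), and the complement inhibitor *Cfi* (1.32 ± 0.26). *Ttc14* (1.29 ± 0.27, SE on the log2 scale throughout) completed the 15 largest rises together with *Tulp1*. These 6 genes passed in 3 to 9 of the 16 fits, with adjusted p of 0.0319, 0.0464, 0.04996, 0.0331, 0.0345, and 0.0464 in that order (edgeR). *Cfi* was the 1 of 17 complement genes that passed, where 0.502% of all genes did, and 1 of the 17 passed without P20 mouse 4.

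*Tulp1*, a gene best known from photoreceptors, ranged from 5.41 to 12.8 CPM with a median of 9.72 at P20, and from 10.7 to 91.2 CPM with a median of 32.1 at P40 (log2 fold change 1.98 ± 0.41 (SE), adjusted p = 0.0428, edgeR, 5 of 16 fits). Markers of cones summed to 19.3 to 97.7 CPM at P20 and 30.3 to 313 CPM at P40 over 9 genes, 7 of them fitted above 0 and none past the threshold, and their part in the rise of *Tulp1* was not tested. Markers of the inner retina, 8 of 10 fitted above 0 and none past the threshold, summed to 346 to 787 CPM at P20 and 228 to 2149 CPM at P40. The median of the sums was lower at P40 (325 against 520 CPM), and the highest sum was that of P40 mouse 6. Their part in the rises was not tested either. *Ppbp*, a chemokine of platelets, was the gene of the core outside the naming rule that rose, because of its low level, and was at 0.164 to 0.651 CPM at P20 and 1.56 to 5.15 CPM at P40, without overlap (log2 fold change 2.85 ± 0.41 (SE), adjusted p = 0.00443, edgeR). Markers of blood summed to 383 to 1511 CPM at P20 and 352 to 5835 CPM at P40 over 5 genes. The median of these sums was 752 CPM at P20 and 648 CPM at P40, and the highest was that of P40 mouse 3. The part of blood in the rise of *Ppbp* was not tested. Markers of skeletal muscle were all 6 fitted above 0, at a median of 2.51, with sums of 13.7 to 205 CPM at P20 and 24.9 to 1687 CPM at P40, highest in P40 mouse 3. None passed with edgeR, and DESeq2 and limma voom called 3 and 0, against 1798 of 18310 and 2213 of 16745 of all genes. All 6 had an unadjusted p under 0.05, as did 4326 of all 16745 genes.

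Genes that Nrf2 is known to drive did not pass the test between the ages. None of 46 Nrf2 target and glutathione genes passed with edgeR. DESeq2 and limma voom called 3 and 4 of the 46, against 1798 of 18310 and 2213 of 16745 of all genes. At an unadjusted p under 0.05, 9 of the 46 were higher and 0 lower, where 4326 of all 16745 genes reached that p in either direction. Of the 46, 37 were fitted above 0, and the median log2 fold change was 0.38, or 0.18 after the correction for length. *Gclc*, the catalytic subunit of the first enzyme of glutathione synthesis, ranged from 539 to 3858 CPM with a median of 2385 at P20, and from 459.5 to 3523 CPM with a median of 2800.1 at P40 (log2 fold change −0.26 ± 0.48 (SE), adjusted p = 0.758, edgeR). *Txnrd1*, thioredoxin reductase, ranged from 469 to 3048 CPM with a median of 1774 at P20, and from 460.4 to 2129 CPM with a median of 1718 at P40 (log2 fold change −0.43 ± 0.39 (SE), adjusted p = 0.497, edgeR). For both genes the ages overlapped almost fully, the lowest P20 library was that of mouse 4, and the 3 lowest P40 libraries were those of mice 3, 6, and 8. Without P20 mouse 4 the log2 fold change was −0.46 for *Gclc* and −0.62 for *Txnrd1*, and it turned from 0.06 to −0.13 for *Gss*, from 0.12 to −0.08 for *Slc7a11*, and from 0.19 to −0.02 for the transgene, none past the threshold. The fitted sign also turned for *Ggt1*, *G6pdx*, and *Sod2*, to −0.03, −0.13, and −0.08. The transgene in those 3 P40 libraries was at 9144, 5117, and 3205 CPM. The fitted changes of the remaining genes of glutathione, NADPH, and superoxide metabolism that the study discusses lay between −0.46 for *Abcc4*, an efflux transporter, and 1.16 for *Sod1*, a superoxide dismutase, with standard errors of 0.22 to 0.47. None of them passed (*Gclm*, *Gss*, *Ggt1*, *Slc7a11*, *Gsr*, *Abcc4*, *G6pdx*, *Taldo1*, *Pgd*, *Cat*, *Sod1*, and *Sod2*). An adjusted p above the threshold does not show that these genes had the same level at both ages.

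Part of the difference between the ages followed transcript length. For each library, the deviation of each gene's log2 CPM from its mean over the 16 libraries was regressed on the log2 of its longest transcript, which gives a slope in log2 CPM per doubling of length. The slopes were 0.0518 to 0.278 at P20 (mean 0.122 ± 0.0819, SD, n = 7) and −0.427 to 0.141 at P40 (mean −0.0952 ± 0.178, SD, n = 9). All 7 slopes at P20 and 3 of 9 at P40 were above 0, so that short transcripts were relatively higher at P40. The means differed by −0.218 (two-sided exact permutation test over 11440 assignments, p = 0.00944). Across genes, the quintile with the shortest transcripts had a median log2 fold change of 0.52 and the longest quintile −0.16. Genes that rose had a median transcript of 2142.5 bases and genes that fell one of 4575.5 bases, against 3223 bases for all genes tested.

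With length modelled as a smooth offset in each library, the medians of the shortest and longest quintiles became 0.09 and 0.03, and 56 genes passed, 20 that rose and 36 that fell. Of the 84 genes, 48 passed again, 14 that rose and 34 that fell, and all 84 kept their sign. *Serpine3*, whose transcript of 1402 bases is short, fell by 4.14 on the log2 scale with the offset (adjusted p = 0.000149, edgeR), and *Pmel* by 2.61 (adjusted p = 0.00590, edgeR). *Col4a5*, *Lamc1*, and *Npnt*, whose transcripts are longer, had log2 fold changes of −1.67, −1.06, and −1.89 with the offset and passed (adjusted p = 0.00455, 0.00455, and 0.000362, edgeR). *Lamb1*, *Plod1*, *Adamts2*, *Myh11*, *Emilin2*, *Hif3a*, and *Cdh17* among the falls named above did not pass with the offset, where their log2 fold changes were −0.87, −0.68, −1.35, −2.46, −2.31, −1.60, and −1.69, all within 1.5 times of those without it (adjusted p = 0.0584, 0.0975, 0.0723, 0.0543, 0.0584, 0.0733, and 0.0648, edgeR). Nor did *Cfi*, *Mmachc*, *Igfbp6*, *Id1*, *Gnmt*, *Rarres2*, and *Tulp1* among the rises, with log2 fold changes of 1.21, 1.35, 1.02, 1.04, 1.26, 1.96, and 1.93, also within 1.5 times (adjusted p = 0.0648, 0.0648, 0.0584, 0.0583, 0.0543, 0.0648, and 0.0554, edgeR).

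**Figure D3:**
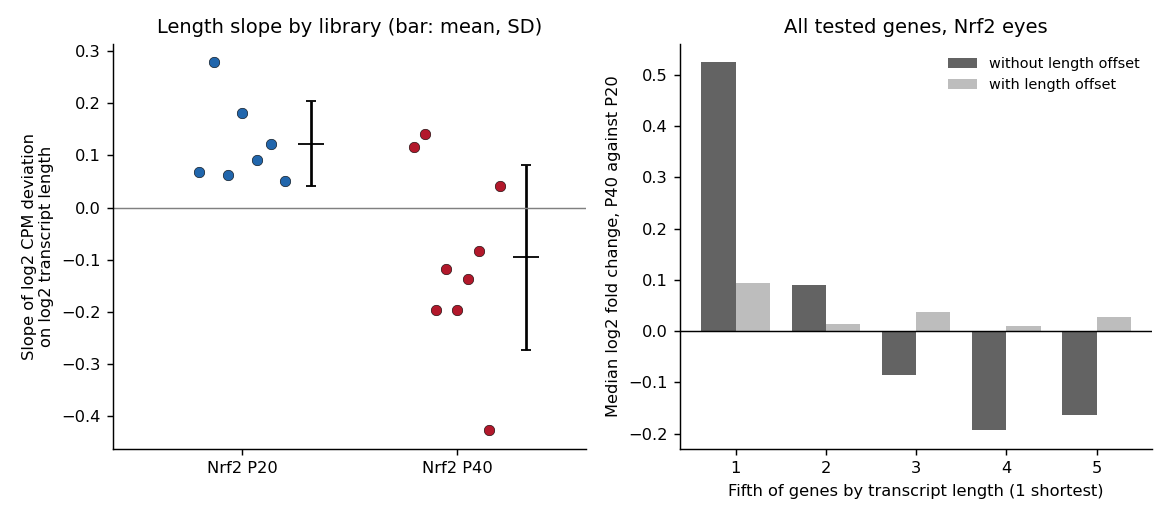
Left, slope of the log2 CPM deviation on log2 transcript length in each Nrf2 library, with mean and SD beside the points. Right, median log2 fold change from P20 to P40 over quintiles of the genes by transcript length, which runs from 0.52 to −0.16 without the length offset and lies between 0.01 and 0.09 with it.

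Among the lists of functions, those with the highest medians were made of short transcripts. All 46 nuclear genes of complexes I and IV of the respiratory chain were fitted above 0 (median 1.26, median transcript 977 bases), as were all 60 genes of cytosolic ribosomal proteins (median 1.24, 1108 bases). Summed by library, the genes of complexes I and IV had medians of 6906 CPM at P20 and 8803 CPM at P40. Their highest sums were 7679 CPM at P20 and 58056 CPM at P40. Ribosomal protein genes had medians of 4517 and 5272 CPM and highest sums of 5121 and 26754 CPM. None of the genes of either list passed with edgeR, and DESeq2 called 24 and 35 and limma voom 0 and 1. An unadjusted p under 0.05 was found for 42 and 58 of them, and for 4326 of all 16745 genes. With the length offset the medians were 0.67 and 0.75, and 19 and 34 genes had an unadjusted p under 0.05. In that fit, 3489 of all 16732 genes reached that p. The list of the proteasome went from 0.38 to 0.12 with the offset. The long-transcript lists of the basement membrane (median transcript 5938 bases) and of matrix proteases (4722 bases) went from −0.73 to −0.63 and from −0.63 to −0.56, and the melanosome list from −0.71 to −0.65. Over all 49 lists, 11 had a gene that passed. The remaining 38 had none with edgeR, among them the visual cycle (20 genes, median −0.04), transcription factors of the RPE (15, 0.01), phagocytosis of outer segments (12, −0.40), ion channels and transport (27, −0.26), junctions (18, −0.27), and glycolysis (21, −0.02). In these 6 lists, in that order, 4, 2, 4, 6, 4, and 4 genes had an unadjusted p under 0.05, as did 4326 of all 16745 genes. DESeq2 called 2, 1, 1, 2, 2, and 1, where it called 1798 of all 18310 genes. From limma voom the counts were 3, 1, 6, 8, 3, and 1, against 2213 of all 16745 genes.

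**Figure D4:**
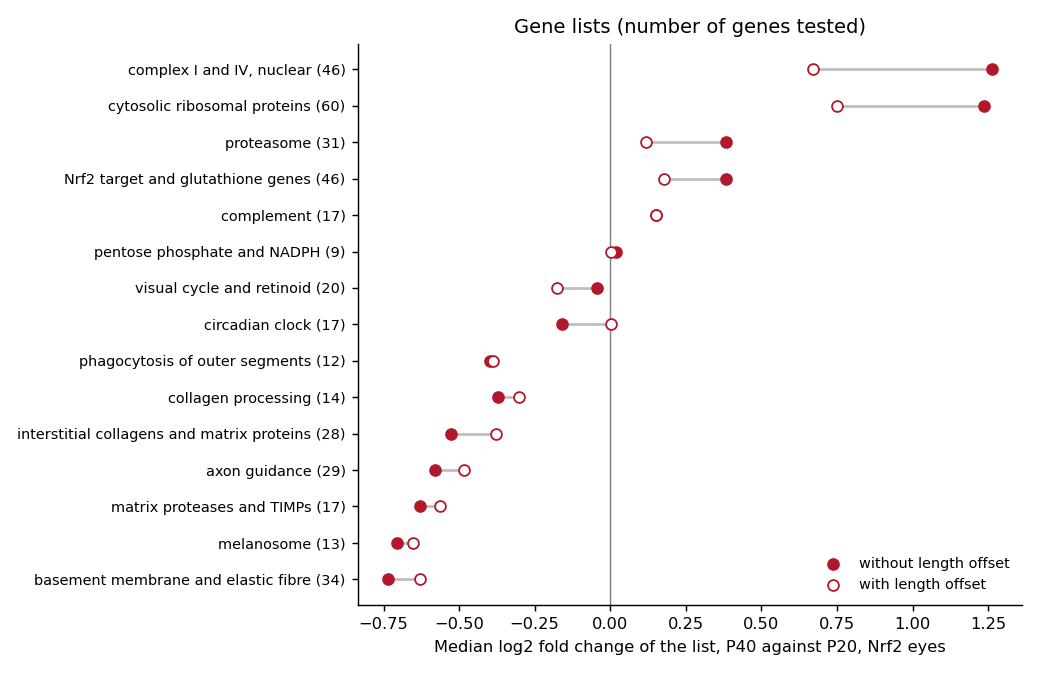
Median log2 fold change from P20 to P40 in Nrf2 eyes of 15 gene lists, without (filled) and with (open) the length offset, with the number of genes tested in brackets. Of these 15 lists, those of the respiratory chain and ribosome lie highest and move most with the offset, to 0.67 and 0.75, while the basement membrane and melanosome lists stay at −0.63 and −0.65.

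Finally, the same genes were read in the control eyes of the same mice, where 2483 of 16832 genes (14.8%) passed the test between the ages. Of the 84 genes, 83 were tested in control eyes, all 83 had the same sign there, and 69 passed there. These control eyes include that of P20 mouse 3, which carried the transgene. Without it, 652 of 17065 genes (3.82%) passed, and of the 83 genes, all had the same sign and 51 passed. The 14 that did not pass in control eyes with all libraries included *Serpine3*, *Nog*, *Pmepa1*, *Oca2*, *Psat1*, *Id1*, *Mmp17*, *Emilin2*, *Plod1*, and *Ppbp*. Of the core genes, *Npnt* had log2 fold changes of −2.09 in Nrf2 and −1.96 in control eyes, *Col4a5* −1.84 and −2.15, *Ciart* 2.15 and 1.97, and *Nfix* 1.88 and 1.92. Without the control eye of P20 mouse 3, these 4 passed in control eyes with −1.91, −2.14, 1.92, and 1.90. The difference of the change with age had an unadjusted p under 0.05 for 8 of the 84 genes, and for *Serpine3* alone it passed after adjustment. Of these 8, *Psat1* changed by −0.62 in Nrf2 and −0.07 in control eyes, *Nog* by −2.17 and −0.89, *Khdrbs3* by 3.16 and 1.66, *Ppbp* by 2.85 and 1.17, and *Cfi* by 1.32 and 2.44. Their differences did not pass the test across all genes, and whether they changed more in either kind of eye was not shown. In the basement membrane list, the medians in Nrf2 and control eyes were −0.73 and −0.66, and no gene of the list passed for the difference.

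**Figure D5:**
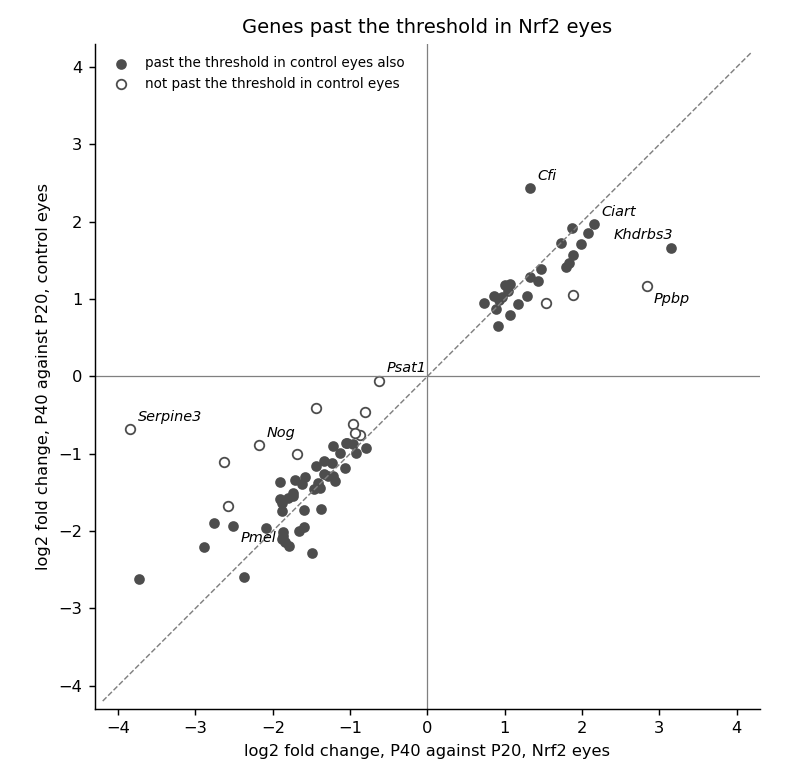
Log2 fold change from P20 to P40 in Nrf2 eyes (x axis) and in control eyes (y axis) of the 83 genes that passed in Nrf2 eyes and were tested in both, with a dashed line of equal change. All 83 lie in the quadrants of equal sign, filled points mark the 69 that also passed in control eyes, and *Serpine3* lies farthest from the line.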

How the data were processed

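RNA of 32 RPE libraries (2 eyes of 16 *rd1* mice) was measured. In the methods, amplified RNA was sequenced, STAR mapped the reads to mm10 with Ensembl transcripts, and genes were counted both with featureCounts and from Salmon estimates through tximport. Salmon 0.9.1 is named in the submitters' processing notes. The authors deposited estimated counts for genes as whole numbers, without any scaling by library total or by length. That these are the Salmon estimates was inferred from the genes listed. Amplification leaves fewer molecules than reads, so depth overstates precision.

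Of 34453 rows, 34402 had a symbol (GENCODE M21, GRCm38) and 34401 a transcript length. No column was left unused. Groups came from the labels. Counts were analysed in R 4.3.3. Genes kept by filterByExpr were normalized with TMM and tested, two-sided, with the quasi-likelihood F test of edgeR 4.0.16 (Benjamini-Hochberg, threshold 0.05), for age in Nrf2 eyes, age in control eyes, and the difference with the mouse as a block over 32 libraries. Each standard error is the size of the log2 fold change over the square root of F. Length was modelled as a spline with 5 degrees of freedom in each library. Tests were tried on simulated data first. Alternatives were DESeq2 1.42.0, limma 3.58.1 (voom with quality weights), RLE size factors, other filters and thresholds, robust dispersion, covariates, and leaving out libraries.

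The genes named are the 15 largest rises and falls past the threshold with a mean log2 CPM of at least 1, every gene past the threshold in a list, the transgene and *Nfe2l2*, the study's glutathione and NADPH genes, the 2 highest genes of lists with none past the threshold where given, and genes past the threshold for the difference. Others are marked. The comparison, the lists, and the genes were chosen with earlier results of these data known. Leaving out the 3 distant libraries, the length offset without P20 mouse 4, and leaving out the control eye of P20 mouse 3 were alternatives chosen after seeing the data.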

Additional observations from a re-analysis of the deposited data

Results flagged for a closer look

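The change of *Serpine3* with age differed between the kinds of eye, falling by 3.08 more on the log2 scale in Nrf2 than in control eyes (a difference of −3.08, edgeR adjusted p = 0.00347).

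Among 140 sets of values of named genes and length slopes within an age, 10 had a highest or lowest library far from the rest. That is not far above the share of about 5% that chance alone gives. The number in brackets is the gap to the nearest library as a share of the range. Of the 6 sets at P20, 4 were low in mouse 4, whose label is in doubt: *NFE2L2* (0.687), *Pgd* (0.65), *Slc7a11* (0.625), and *Gss* (0.576). *Mmp17* was high in P20 mouse 2 (0.721) and *Ciart* low in P20 mouse 7 (0.576). At P40, *Nfil3* was low (0.601) and *Id1* high (0.512) in mouse 8, and *Dbp* (0.538) and *Cdh17* (0.525) were low in mouse 9.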

How the results depend on the processing

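The sign of the 84 genes was the same in every alternative in which they were tested, while their number was not stable. It was 77 with RLE size factors, 108 with at least 10 counts in every library, 63 with robust dispersion, 69 at 2-fold or more, and 83 with length and GC offsets. Without a filter 31 passed (8 rose and 23 fell), with the transgene level as a covariate 49 (18 and 31), with the length offset 56 (36 fell), without the 3 distant libraries 39 (12 and 27), and with the length offset and without P20 mouse 4 it was 27 (11 and 16). More passed at an adjusted p under 0.1 (264, 98 and 166), in one fit over 32 libraries (496, 208 and 288), with DESeq2 (1798, 1155 and 643), and with limma voom (2213, 610 and 1603). Over the fits that left out 1 library, 21 to 190 genes passed, 6 to 51 that rose and 15 to 139 that fell. In control eyes, 652 genes passed without P20 mouse 3 in place of 2483. The cause of these differences was not tested.

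Replicate numbers did not pair the ages, since the mice differ: the mean correlation of same-numbered deviations was −0.00898, and none of 7 correlated best with its own number. With the replicate number as a block over mice 1 to 7 of each age, 3 genes passed (2 rose and 1 fell). The difference between kinds of eye gave 1 gene without the mouse block and in the other alternatives run for it except DESeq2 (10), and *Serpine3* ranged from −3.33 to −2.86 when 1 mouse was left out. The slope difference was −0.266 with mean transcript length (exact permutation p = 0.0115).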
